A study of Mus musculus with 4 samples.

Results

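The genes described here are those on which every NAT10 peak of a mouse eCLIP experiment fell in an exon outside the untranslated regions (UTRs), as the authors classed their peaks. They were chosen by reading the class of each listed peak and keeping the gene identifiers with no peak of another class. This gave 386 of 1629 gene identifiers (23.7%) and 769 of 4172 distinct peaks. Of these, 380 genes with 708 peaks were nuclear and 6 genes with 61 peaks were mitochondrial, and the mitochondrial genes are reported apart. The class of the peaks chose the genes, so the absence of UTR peaks is a description and is not tested.

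NAT10 is the acetyltransferase that places N4-acetylcytidine on RNA, both in ribosomal and transfer RNA and in messenger RNA. In eCLIP, RNA and bound protein are first joined by ultraviolet light, the protein is then collected with an antibody, and the sites are read as places where immunoprecipitated fragments exceed the input. The exons of a messenger RNA outside its UTRs hold the coding sequence, which ribosomes traverse, whereas the 3' UTR mostly carries signals for stability and location. In non-coding and unclassified transcripts the word exon carries no such meaning.

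All libraries came from 32D, 1 mouse cell line that needs interleukin-3 for growth and that the labels call bone marrow lymphoblastocytes. The cells were wild type, were kept in RPMI1640 medium with serum and 10 ng/mL mouse interleukin-3 and were crosslinked at 150 mJ and 254 nm. The series has 2 libraries precipitated with a NAT10 antibody and 2 inputs made without antibody, and the labels do not say whether the members of a pair came from separate cultures. No library of cells lacking NAT10 was used here. The authors summarised all 4 libraries in 1 list, so each peak has a single log2 fold of immunoprecipitate over input and a single -log10 p, both the authors' own, with no spread between replicates. No test between conditions was possible, and every comparison below sets measured values side by side. Intervals for medians and shares are 95% binomial intervals that cover only the number of peaks or genes counted, not the dependence among peaks of the same gene. Levels of RNA in the cells were not part of the list, so the cell type could not be checked against its markers, and a missing peak cannot be told apart from a low RNA level. No listed peak had a log2 fold below 3.00, and the smallest -log10 p was 3.07. Positions are on GRCm39 as the authors list them.

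Most exon-only genes rested on a single peak. There were 229 such genes (59.3%), 73 had 2 peaks, 36 had 3, 19 had 4 and 29 had 5 or more. A gene with 1 peak has 1 class by construction, and among the 762 genes of the whole list with a single peak 30.1% were exon-only. Among genes with 2 or more peaks 157 of 867 were exon-only (18.1%), among those with 5 to 9 peaks 13.7%, and among those with 10 or more 9.76%. The 4 exon-only genes with at least 10 peaks were Eef1a1 (20), mt-Co1 (16), mt-Nd5 (15) and Maml3 (13). Just outside the rule stood 139 genes with exon peaks and exactly 1 peak of another class. Rack1, a scaffold protein of the small ribosomal subunit, had 13 exon peaks and a 5' UTR peak with a log2 fold of 3.83. Fut8, a fucosyltransferase, had 8 exon peaks and a 5' UTR peak of 4.44, and Chka, a choline kinase, had 7 and a 5' UTR peak of 4.73. The ribosomal protein gene Rpl7 had 7 exon peaks and a 5' UTR peak of 3.15. Mbnl2, a splicing regulator, had 6 exon peaks with a median log2 fold of 8.25 and a 3' UTR peak of 4.66. In each of these 5 genes the peak that placed it outside lay below the median of the exon peaks of the same gene. The other medians were 4.02 in Rack1, 4.70 in Fut8, 5.63 in Chka and 4.80 in Rpl7. The 5 genes were picked by their number of exon peaks, so this describes them alone.

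The nuclear genes were bound with moderate fold. The median log2 fold of their 708 peaks was 4.49 (95% interval 4.43 to 4.55; interquartile range 4.18 to 5.0), and the range ran from 3.01 to 8.72. The 763 exon peaks of genes that also had UTR peaks had a median of 4.55 (4.50 to 4.64), so the intervals of both medians overlapped. Taken as the strongest exon peak per gene, the medians were 4.55 (4.44 to 4.65) over 380 nuclear exon-only genes and 4.65 (4.55 to 4.75) over 319 genes with other classes too, again with overlapping intervals. Single-peak genes, with a median of 4.36, occur only on the exon-only side of both comparisons. In genes with 2 peaks the medians over exon peaks were 4.50 in exon-only genes and 4.43 in the others. They were 4.45 and 4.44 with 3 or 4 peaks, and 4.80 and 4.65 with 5 or more, with overlapping intervals each time. Peaks above the median log2 fold of the whole list made up 42.8% (39.1 to 46.5) of the nuclear exon-only peaks. The share was 47.2% (43.6 to 50.8) of exon peaks of genes with UTR peaks too, and 49.2% (47.6 to 50.7) of all peaks. These shares were not matched by number of peaks per gene. By the strongest peak, 232 of the 380 nuclear genes (61.1%) lay from 4 to below 5, 64 lay from 5 to below 6, 35 from 6 to below 7, and 11 (2.89%) at 7 or above. A further 38 genes stayed below 4. The genes below 4 had 1.24 peaks on average and those from 6 to below 7 had 3.40. The 11 strongest genes had 3.36 peaks on average. The strongest of more peaks tends to be higher by construction, so these averages are descriptions only.

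The strongest nuclear peaks lay on genes of varied function, and several were parts of 1 continuous stretch. Rint1, which encodes a protein of endoplasmic reticulum to Golgi transport, had 6 peaks with log2 folds of 5.77, 8.72, 7.23, 6.41, 4.50 and 4.60 in the direction of transcription. The peak of 8.72 lay at chromosome 5, 24010282 to 24010346, and those of 7.23 and 6.41 lay directly downstream of it. Optn, the autophagy receptor optineurin, had 5 peaks with log2 folds of 7.91, 7.33, 6.17, 5.34 and 5.18 in the direction of transcription. The first 3 touched one another, and the strongest lay at chromosome 2, 5040691 to 5040737. Zc3h7a, a CCCH zinc finger protein, had 5 peaks between 6.54 and 7.67, of which 4 formed a run of 335 nt at chromosome 16, 10972496 to 10972830. Sos1, the exchange factor that activates Ras downstream of cytokine receptors, had 5 touching peaks of 7.38, 7.58, 6.53, 6.58 and 6.78 over 347 nt at chromosome 17, 80713513 to 80713859, the longest continuous stretch of any exon-only gene. A second Sos1 site of 5.15 and 5.44 lay further along the gene. Ttc7b, a scaffold of the phosphatidylinositol 4-kinase complex, had a separate peak of 4.19 and then 3 touching peaks of 6.42, 7.85 and 6.95. The third longest run belonged to Zeb1, a zinc finger transcription factor, with 5.05, 7.04 and 5.29 over 331 nt.

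Other strong genes had only 1 or 2 peaks. Dnajc3, a co-chaperone of the endoplasmic reticulum, had a single peak of 7.87 at chromosome 14, 119190578 to 119190719. Mdn1, the large ATPase of 60S ribosomal subunit maturation, had a single peak of 7.49 at chromosome 4, 32696106 to 32696307. Depdc1b had 7.46 and 5.84 on touching peaks. Naip5, an inflammasome sensor of bacterial flagellin, had 7.46 and 7.07 within 67 nt. Mdm1, a microtubule-binding protein of centrioles, had 1 peak of 7.13. Pnpla7, a lysophospholipase, had 6.95 and 6.56 on touching peaks. Single peaks of 6.72 and 6.60 were listed for Fgd3, an exchange factor of Cdc42, and for Tlcd2. Taf1d, a subunit of the RNA polymerase I promoter factor, had 6.84 and a second peak of 3.55. A peak of 6.58 at chromosome 2, 154690133 to 154690287, was listed under both Raly, an hnRNP protein, and the agouti gene (symbol a), so its gene of origin cannot be told from the list.

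**Figure D1:**
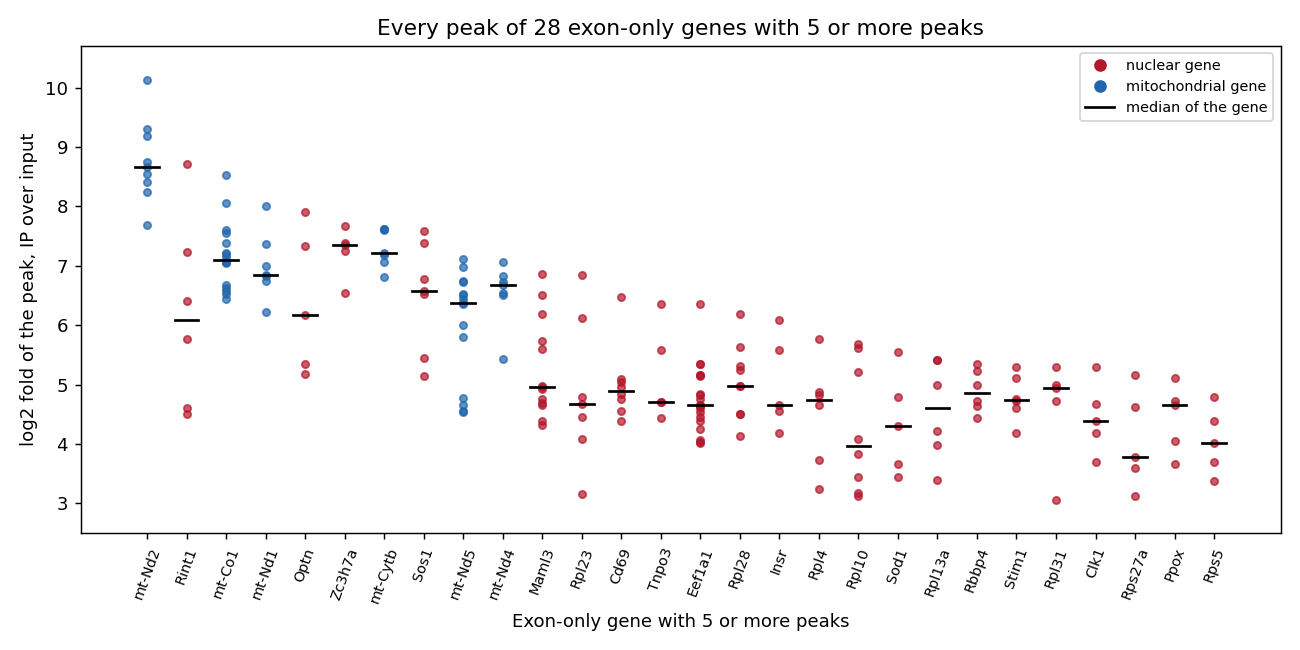
Log2 fold of immunoprecipitate over input (vertical axis) of every peak of 28 of the 29 exon-only genes with 5 or more peaks (horizontal axis; the remaining gene is not reported here), with 1 point per peak and a bar at the median of the gene. Among nuclear genes Rint1, Optn, Zc3h7a and Sos1 reach above 7, and the ribosomal protein genes Rpl10 and Rpl4 spread from just above 3 to above 5.

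Genes of the translation apparatus made up the largest named group. Cytosolic ribosomal proteins, the protein parts of the translating ribosome, gave 32 exon-only genes of 70 with a peak (45.7%), beside 23.7% over all genes with a peak. Of the other 38, 31 had exon peaks with UTR peaks and 7 had UTR peaks alone, and those 7 all belonged to the large subunit. The large subunit had 19 exon-only genes of 41 (46.3%, 95% interval 30.7 to 62.6) and the small subunit 13 of 29 (44.8%, 26.4 to 64.3). Most of them had several peaks, 28 of 32 having 2 or more. Among ribosomal protein genes with 2 or more peaks the exon-only share was 44.1% for the large and 44.8% for the small subunit, beside 18.1% of all such genes. These counts are descriptions, because the class of the peaks defined the genes, and UTR lengths were not used here.

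The peaks on single ribosomal protein genes varied widely in fold. Rpl23 had 7 peaks, from 3.16 to 6.84, with the highest at chromosome 11, 97669091 to 97669165. Its 7 peaks formed 3 separate regions over 3346 nt. Rpl28 had 9 peaks from 4.13 to 6.19 (median 4.97), and Rpl10 had 8 from 3.12 to 5.68 (median 3.96). In Rpl10 the strongest peaks, 5.68 and 5.62, lay inside the gene, flanked by weaker ones of 3.12 to 5.22. Rpl4 had 6 peaks from 3.24 to 5.77. Further large-subunit members were Rpl14 (strongest 5.92), and at the low end Rplp2 (3.25) and Rpl38 (3.08), each with a single peak. Small-subunit members included Rps4x (5.47), Rps10 (5.22) and Rps27a (5.17), and the lowest was Rps19 (3.41).

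As a group these ribosomal peaks were short, and their -log10 p was high for their fold. The 118 exon-only ribosomal peaks had a median width of 35 nt, a median log2 fold of 4.39 and a median -log10 p of 8.36. The 570 peaks of the other nuclear exon-only genes, Eef1a1 apart, had 94 nt, 4.50 and 4.9. The ribosomal genes had more peaks each, and widths at like numbers of peaks differed less in genes with 2 or more peaks. In single-peak genes they differed more, with medians of 25.5 nt (from only 4 ribosomal peaks) and 118 nt (from 223 peaks). In genes with 5 or more peaks the median was 35.5 nt (95% interval 27 to 48) on ribosomal protein genes and 71 nt (60 to 83) on the others. In genes with 3 or 4 peaks it was 34.5 nt (26 to 52) and 80 nt (68 to 87), and in genes with 2 peaks 48 nt (16 to 79, from 12 peaks) and 86 nt (79 to 103). The folds also differed in form. Among those 570 peaks 89.3% had folds on the steps that whole reads over 1 input read (or a count of 1 added in its place) in each library would give, whereas 54.2% of the ribosomal peaks did. Within the ribosomal peaks the median -log10 p was 9.08 on the steps and 8 off them. Within those 570 other peaks it was 4.53 on the steps and 5.22 off them. The steps are read from the folds alone, so these values do not measure input depth. The part of input depth in the short widths and high -log10 p was not tested. Exon peaks of the ribosomal genes that also had UTR peaks were similarly short. For the large subunit the median widths were 36.5 nt in exon-only genes and 41 nt in the others, and the median log2 folds 4.50 and 4.25. For the small subunit they were 34.5 and 48 nt, and 4.23 and 4.65. The order of the folds thus differed between the subunits.

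Among translation factors 9 of 21 bound genes were exon-only (42.9%, 95% interval 21.8 to 66.0), an interval that includes the 23.7% of all genes. Eef1a1, which delivers aminoacyl-tRNA to the ribosome, had more peaks than any other exon-only gene. Its 20 peaks formed 11 regions within 1851 nt of chromosome 9, and their log2 folds ran from 4.02 over a median of 4.65 to 6.36. The strongest was 27 nt long, at chromosome 9, 78386598 to 78386624. The peaks were short (median 24.5 nt, 5 to 93 nt), and their -log10 p lay between 12.1 and 29.6, a median of 18.5. Only 30% of them lay on the steps of 1 input read. Eif4g3, an initiation scaffold, had 2 peaks of 4.79 and 6.34. Etf1, the release factor, reached 5.22, Eif2s2, a subunit of the factor that brings the initiator tRNA, 4.55, and Eef1g 4.26. Eef2, the translocase (outside the rule for named genes and chosen after its values were seen), had 3 peaks of 4.05, 3.56 and 3.72, of which the first was 2 nt long. Of 10 bound aminoacyl-tRNA synthetase genes 3 were exon-only (30%, 95% interval 6.67 to 65.2), Yars (4.51), Aars (4.12) and Sars (3.53). In the nucleolar and ribosome biogenesis list 4 of 9 bound genes were exon-only (44.4%, 13.7 to 78.8), Nol4l (4.71), Tsr1 (4.05), Nolc1 (3.81) and Npm3 (3.36). This list is a pattern of symbols, which takes in Nol4l by its symbol alone and leaves out Mdn1 (7.49). The intervals of the synthetase list and of this list both include 23.7%.

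**Figure D2:**
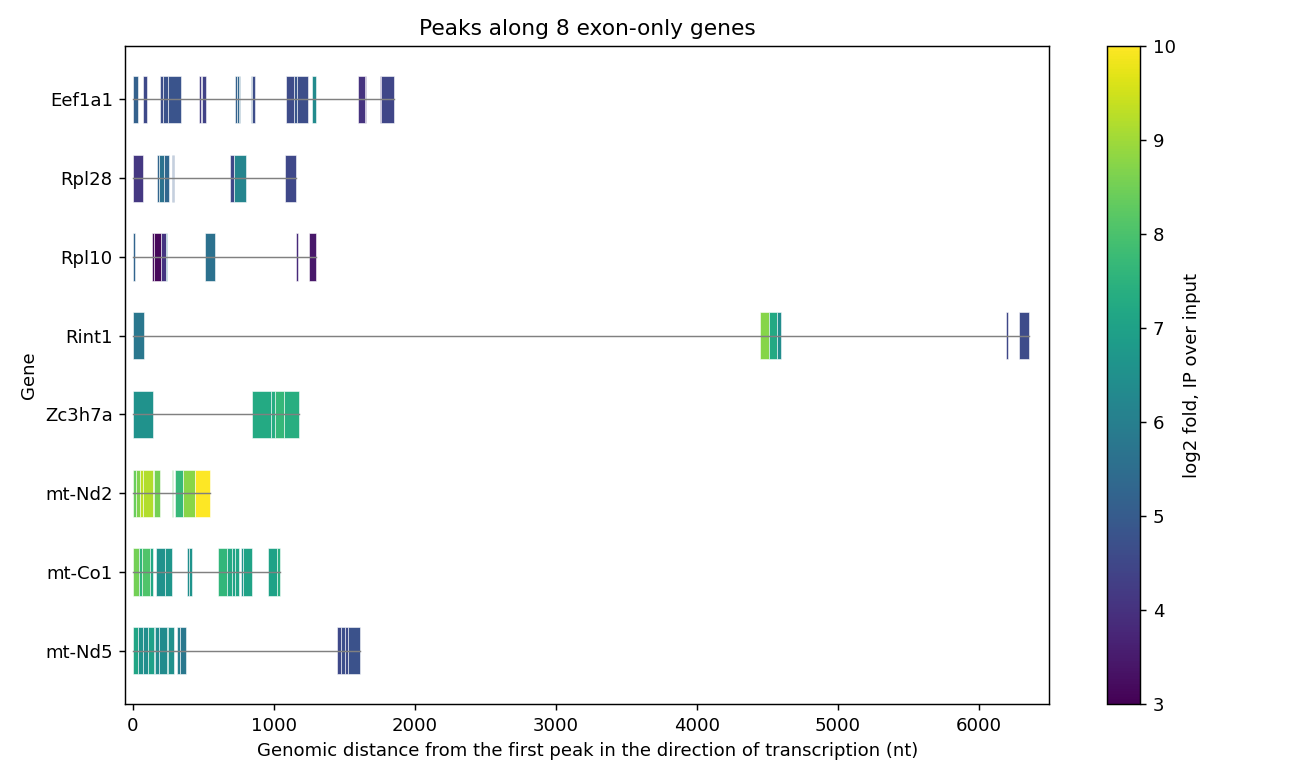
Position of every peak of 8 exon-only genes (rows), as genomic distance in nt from the first peak in the direction of transcription, coloured by log2 fold of immunoprecipitate over input; introns, where present, are included in the distance. The 20 peaks of Eef1a1 crowd within 1851 nt, and those of mt-Nd5 fall into a block of 11 and a weaker block of 4.

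The replication-dependent histones, which package newly made DNA, had 14 exon-only genes of 27 with a peak (51.9%, 95% interval 31.9 to 71.3). They comprised 5 H2B, 4 H3, 2 H2A, 2 H1 and 1 H4 genes, and 13 of the 14 lay on chromosome 13. The families and chromosomes of the other 13 bound histone genes were not set beside these counts. Most, 9 of 14, had a single peak. The strongest were H2bc15, with 6.10 and 5.27 on touching peaks, and H2bc18, with 5.72 and 4.91, followed by H4c12 (4.65), H2bc13 (4.46) and H2bc3 (4.41). The other 9 reached between 3.59 and 4.36. The median strongest fold was 4.21, beside 4.38 in the other 13 bound histone genes. The 3 peaks of H2bc6 (4.31, 4.36 and 3.38) were spread over 34950 nt, although genes of this kind are usually short and without introns, and the gene model behind this was not examined. Histone copies are nearly identical in sequence, so which copy a peak belongs to is uncertain. Of 6 bound variant histone genes only H2aj (4.35) was exon-only.

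Genes of protein quality control and energy supply showed high shares in short lists. Of 10 proteasome genes with a peak, 6 were exon-only (60%, 95% interval 26.2 to 87.8), and none of the 10 had both exon and UTR peaks. Each of the 6 had a single peak, and the exon-only share of all single-peak genes was 30.1%. Psmf1, an inhibitor of the proteasome, reached 5.88, the deubiquitinating subunit Psmd14 5.18, Psmb4 4.96, the activator Psme4 4.90 and Psmb3 4.25. Among nuclear-encoded genes of the respiratory chain and ATP synthase 7 of 13 were exon-only (53.8%, 25.1 to 80.8). Their strongest peaks were moderate, with Atp5b at 4.69 (4 peaks), Atp5d at 4.34, Atp5c1 at 4.32, Atp5l at 4.31 and Ndufc2 at 4.19. The intervals of both lists lie above 23.7%, but with 2 or more peaks 0 of 2 proteasome and 2 of 6 respiratory chain genes were exon-only. Among chaperones 9 of 29 were exon-only (31%, 15.3 to 50.8), a share whose interval includes 23.7%, and among those with 2 or more peaks the share was 18.8% beside 18.1% of all such genes. After Dnajc3 came Hspa8, the constitutive Hsp70 protein, with 4 peaks up to 5.77, then the mitochondrial chaperonin pair Hspe1 (4.92) and Hspd1 (4.88), and Dnajb9 (4.79). Of the nuclear transport genes 5 of 15 were exon-only (33.3%, 11.8 to 61.6), led by the import receptor Tnpo3, with 5 peaks of 4.70, 5.58, 6.36, 4.70 and 4.44. Kpna4, an importin alpha, stood out by its -log10 p. Its log2 folds were 3.65, 3.70 and 4.42, all below the list median of 4.60, yet the first 2 were the only nuclear exon-only peaks at the p ceiling of 400. Of all peaks in the list 0.815% were at that ceiling.

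Membrane traffic genes gave 11 exon-only genes of 36 (30.6%, 95% interval 16.3 to 48.1, which includes 23.7%). After Rint1 came the SNARE protein Stx6 (6.33), Sec14l2 (6.32), a lipid transfer protein placed here by its name, Snx20 (4.88) and Sec11c (4.81), of the signal peptidase. Small GTPases and their regulators gave 11 of 49 (22.4%), a share near that over all genes. Rhoq (6.25) and Gna15 (6.21), the latter a G protein alpha subunit of blood cells, each had a single strong peak, and the next were Arhgef40 (4.60), Rab24 (4.50) and Rab5if (4.48). Ubiquitin enzymes gave 9 of 44, among them Ube2d1 (6.20), Usp34 (5.46), Usp15 (5.10) and Marchf5 (4.50). Cytoskeletal genes gave 7 of 33, with the gamma-tubulin Tubg1 at 6.08, Washc3 at 5.15, the Arp2/3 subunits Arpc2 and Arpc3 at 4.55 each and Tuba1c at 4.38.

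Lists of RNA-binding proteins, zinc finger proteins and glycolysis had lower exon-only shares, but the interval of each includes the 23.7% of all genes. Among hnRNP proteins 3 of 26 were exon-only (11.5%, 95% interval 2.45 to 30.2), Raly (6.58), Hnrnpul2 (4.18) and Hnrnpf (3.26), while 13 had exon and UTR peaks together. With 2 or more peaks 0 of 22 hnRNP genes were exon-only, beside 18.1% of all such genes. Spliceosome and SR protein genes gave 8 of 40 (20%, 9.05 to 35.6), with Prpf38b (5.41), the splicing kinase Clk1 (5.29, 5 peaks), Sf3b1 (4.80), Srrm1 (4.50) and Rbm15 (4.48). The 15 exon peaks of these 8 genes had a median log2 fold of 4.38, beside 5.12 over 75 exon peaks of spliceosome genes with UTR peaks too. Factors of mRNA decay and modification gave 2 of 19 (10.5%, 1.3 to 33.1), the decapping enzyme Dcp2 (5.44) and Upf3b (4.31), a factor of nonsense-mediated decay. No RNA helicase of 7 and no glycolysis gene of 6 was exon-only, and the intervals reached up to 41% and 45.9%. The zinc finger list gave 4 of 39 (10.3%, 2.87 to 24.2), Zc3h7a, Zfp318 (6.29), Zmynd8 (4.65) and Zfp958 (4.53). It is a pattern of symbols aimed at the Zfp and Zkscan families and leaves out other zinc finger genes, such as the exon-only Zeb1 (7.04). Its share is therefore not that of all zinc finger genes. With 2 or more peaks the exon-only shares were 14.3% for the spliceosome list, 12.5% for mRNA decay and 10.3% for this list.

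Among regulators of blood cells and growth the exon-only shares ran from 6.25% to 20%, and every interval in these lists includes the 23.7% of all genes. Of 16 bound haematopoietic transcription factor genes only Nfe2 was exon-only (6.25%, 95% interval 0.158 to 30.2), with a weak peak of 3.44. Interleukin-3, Ras and PI3K signalling gave 2 of 15, Sos1 and the Ras inhibitor Nf1, whose 2 peaks of 4.60 and 4.50 lay 110987 nt apart from end to end. Apoptosis and p53 genes gave 1 of 11, Trp53 itself, with a single peak of 4.48 at chromosome 11, 69479191 to 69479330. The cell cycle list gave 5 of 28, Cdk13 (4.75), Cenpl (4.46), Cdk4 (4.38), Rfc5 (4.26) and Cdk8 (4.11). Chromatin genes gave 7 of 40, led by Phf14 (6.12), Cbx6 (4.55, a peak also listed under Npcd), Nap1l4 (4.43), Chd3 (4.41) and Nsd3 (4.26). The phosphatase list gave 3 of 24, Ppp6r2 (5.22), Ptprc, the CD45 phosphatase of blood cells (4.55, 4 peaks), and Ppp2r5c (4.11). Ptprc and the granule membrane protein gene Cd63 (3.06) were the exon-only genes among 10 bound myeloid and mast cell genes. Solute carriers and pumps gave 7 of 39, up to 5.18 for Slc29a2, then Slc30a5 (4.89), Slc43a3 (4.79), Atp6v0c (4.36) and Abcc1 (4.19). Of 2 bound mitochondrial ribosomal protein genes 1 was exon-only, Mrpl13 (5.26). Across the 31 lists 13 had an exon-only share above that of all genes, and 177 of the 386 exon-only genes (45.9%) belonged to at least 1 list.

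**Figure D3:**
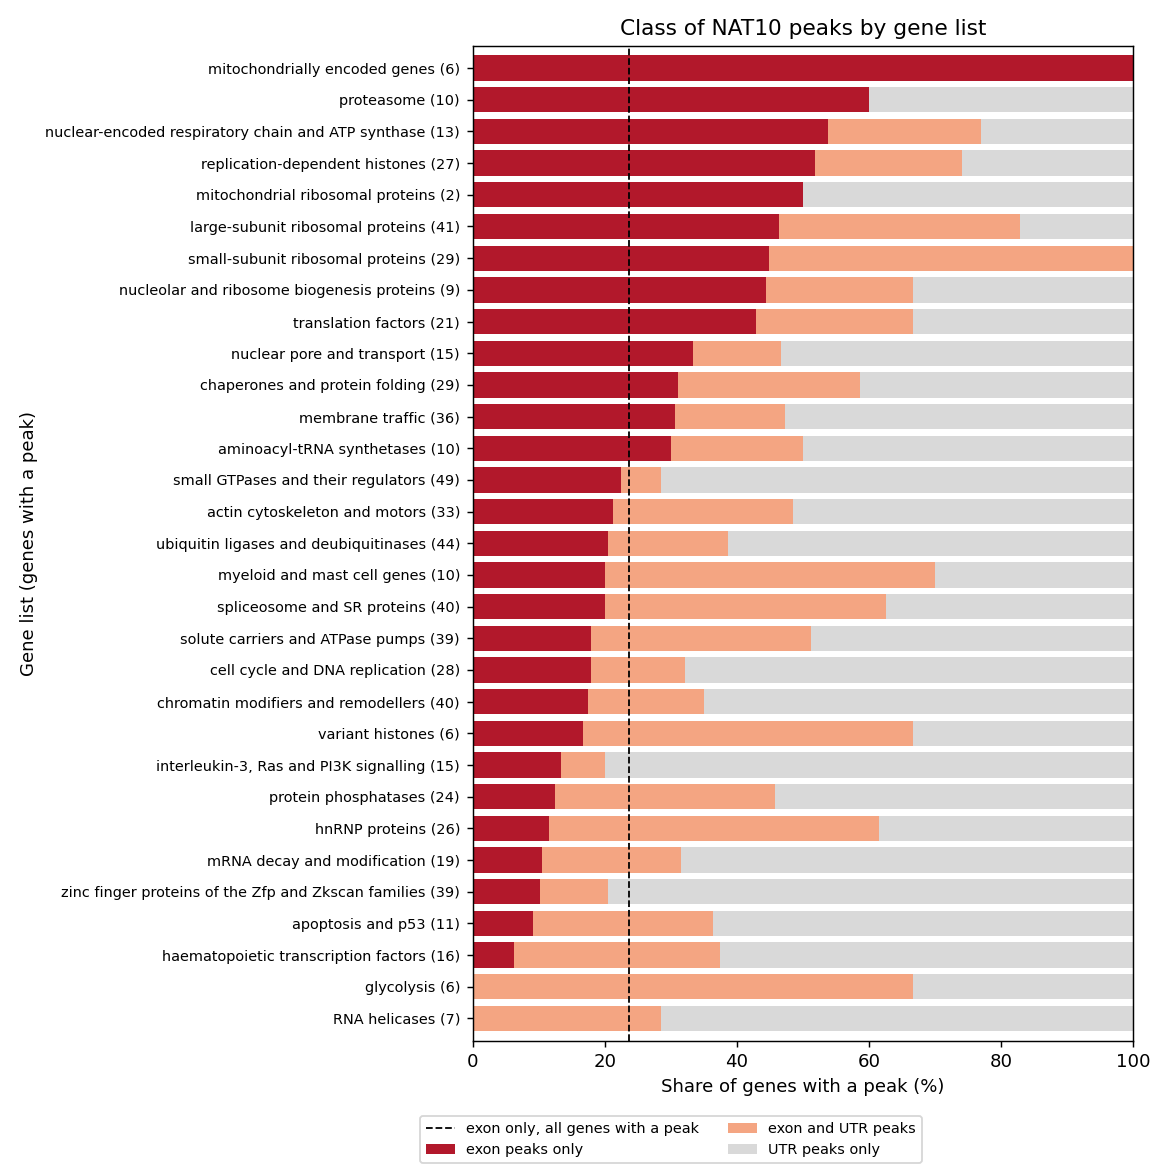
Share of the genes with a peak (horizontal axis, %) that had exon peaks only, exon and UTR peaks, or UTR peaks only, for 31 gene lists (rows, with the number of genes with a peak); the dashed line is the exon-only share over all genes, 23.7%. The proteasome, nuclear-encoded respiratory chain, replication-dependent histone and both cytosolic ribosomal protein lists lie to the right of the line, and hnRNP proteins and haematopoietic transcription factors lie to its left.

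Outside the lists stood genes with many peaks spread along the gene. Maml3, a co-activator of Notch, had 13 peaks in 12 regions over 306486 nt, the widest spread of any exon-only gene. A cluster of 4 peaks, 6.19, 6.86, 5.74 and 6.50, lay at chromosome 3 between 51909550 and 51910442, and the other 9 peaks stayed between 4.32 and 5.60. Cd69, a membrane receptor known from activated lymphocytes, had 8 separate peaks over 5454 nt. They ran from 4.38 to 6.48 with a median of 4.90, and the highest, at chromosome 6, 129248489 to 129248616, lay between peaks of 5.05 and 4.38. Stim1, the calcium sensor of the endoplasmic reticulum, named after its values were seen, had 6 peaks over 117467 nt with folds of 4.18 to 5.29. At the other end, the 2 peaks of Cox6a1 lay within 24 nt. Over the 151 nuclear exon-only genes with 2 or more peaks the median distance from the first to the last peak was 1198 nt, and over the 352 genes with 3' UTR peaks alone and 2 or more peaks it was 544 nt. Introns count in these genomic distances.

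Peaks of exon-only genes were wider than exon peaks elsewhere when pooled, but not when genes with like numbers of peaks were set side by side. The pooled median width was 83 nt (95% interval 79 to 87) for nuclear exon-only genes and 61 nt (57 to 66) for exon peaks of genes with UTR peaks too. In genes with 2 peaks the medians were 83 and 91 nt, in those with 3 or 4 peaks 67.5 and 73.5 nt, and in those with 5 or more 53 and 51 nt, with overlapping intervals each time. Median width was 116 nt in single-peak exon-only genes and 53 nt at 5 or more peaks. Median log2 folds were 4.36, 4.50, 4.45 and 4.80 in genes with 1, 2, 3 or 4, and 5 or more peaks. Some peaks were pieces of 1 stretch: 95 of 338 neighbouring pairs of nuclear peaks (28.1%) touched. The widest exon-only peaks were those of Kcnq5, a potassium channel gene (302 nt, log2 fold 6.05), the predicted gene 4930503L19Rik (299 nt, 5.19) and Nhlrc3 (276 nt, 6.40).

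**Figure D4:**
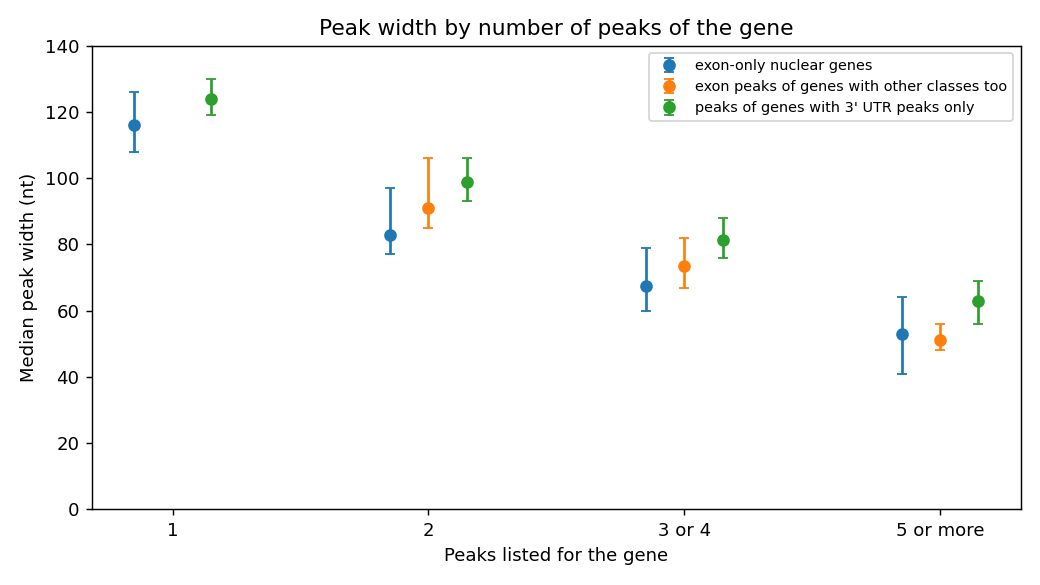
Median peak width in nt (vertical axis) by the number of peaks listed for the gene (horizontal axis), for nuclear exon-only genes, exon peaks of genes with other classes too, and genes with 3' UTR peaks only; bars are 95% binomial intervals of the median. Width is lower with more peaks in each, going from 116 to 53 nt in the exon-only genes.

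The 6 mitochondrial genes, all encoding subunits of the respiratory chain, had a higher median fold than the nuclear ones and a larger share of touching peaks. The median log2 fold of their 61 peaks was 7.0 (95% interval 6.73 to 7.18) beside 4.49 for all nuclear exon-only peaks and 4.80 (4.68 to 4.97) for nuclear exon-only genes with 5 or more peaks. The median width was 37 nt (28 to 49), beside 53 nt (41 to 64) in those nuclear genes with 5 or more peaks, and the intervals overlapped. Of 55 neighbouring pairs 40 touched (72.7%), beside 28.1% of nuclear pairs. In mt-Nd2, a complex I subunit, the 9 log2 folds along the transcript were 8.41, 8.66, 9.30, 9.19, 8.54, 8.24, 7.68, 8.75 and 10.12. Its last peak was the highest of any exon-only gene. In mt-Co1, the catalytic subunit of cytochrome oxidase, the first peak was the highest, 8.52, and the lowest of the 16 was 6.44. The 7 peaks of mt-Cytb, the cytochrome b of complex III, formed 1 unbroken region of 265 nt with folds of 6.81 to 7.62. In mt-Nd1 the range was 6.22 to 8.0 and in mt-Nd4 5.43 to 7.06. The 15 peaks of mt-Nd5 fell into 2 blocks 1066 nt apart. The 11 peaks of the first block lay between 5.80 and 7.12 and the 4 of the second between 4.54 and 4.77, with no overlap. All 4 peaks of the weaker block were at the p ceiling, as were 9 of the first block, so p, being tied at its ceiling, gives no order of the blocks. The remaining mitochondrial peaks at the ceiling were 6 of the 7 on mt-Nd4.

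Most nuclear peaks had folds on the steps described above, and smaller shares of the mitochondrial, ribosomal protein and Eef1a1 peaks did. The association of fold with p was not measured. Of the 708 nuclear exon-only peaks 579 (81.8%) had folds on the steps that 1 input read in each library would give. If these peaks had 1 input read, the geometric mean of their immunoprecipitated reads would be 13.7 in the median (interquartile range 11 to 20.8). The share for exon peaks of genes with UTR peaks too was 80.7%. Pooled over genes, the 129 nuclear peaks off the steps had a lower median log2 fold, 3.88 beside 4.57, and a higher median -log10 p, 7.28 beside 4.95. Among them was Cep295, a centriole protein named after its values were seen, with 4.56 and 5.85 at -log10 p of 60.3 and 40.0. Only 27.9% of mitochondrial peaks lay on the steps. Reads per library were not in the list, so the steps are inferred from the folds alone. A fold on a step therefore does not show that a peak had 1 input read. On and off the steps the median -log10 p was 9.08 and 8 for ribosomal protein genes, and 18.6 and 18.5 for Eef1a1. It was 4.53 and 5.22 for the nuclear genes other than these. The pooled values of 7.28 and 4.95 mix these groups, of which 54.2%, 30% and 89.3% of peaks lay on the steps.

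**Figure D5:**
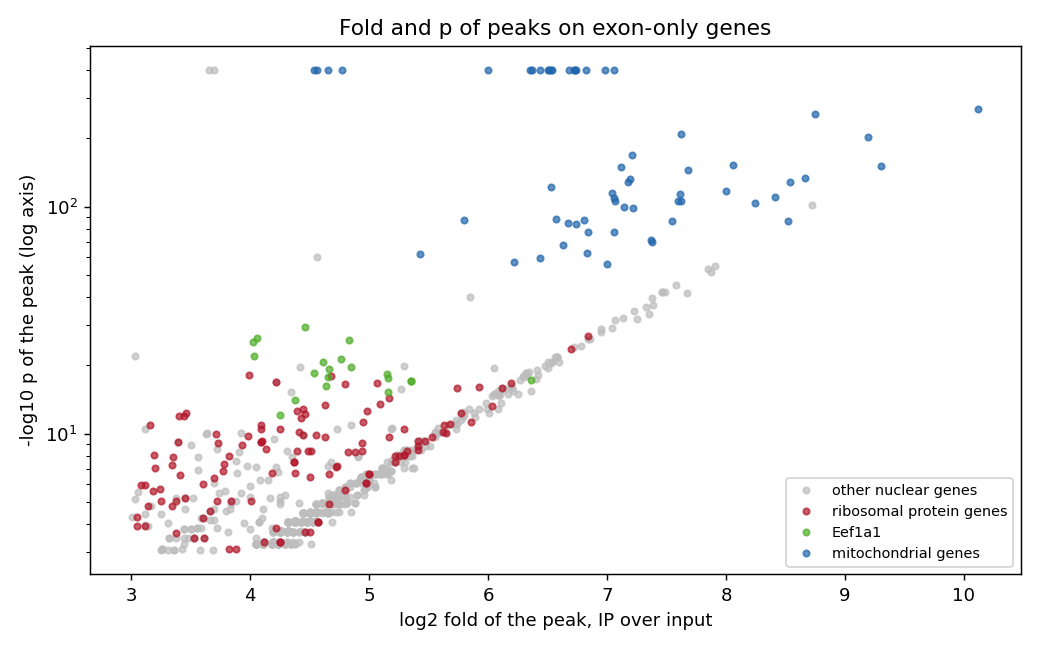
Log2 fold of immunoprecipitate over input (horizontal axis) and -log10 p (vertical axis, log scale) of each peak on exon-only genes, as the authors give them; a peak under 2 gene identifiers is drawn for both. Most nuclear peaks follow a single lower edge, while Eef1a1, many ribosomal protein peaks and the mitochondrial peaks lie above it, up to the ceiling of 400.

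Few exon-only transcripts were other than protein-coding, but gene types over the whole list were not set beside this count. Of the 386 genes 378 matched the RefSeq table by symbol or synonym; 376 of these were protein-coding. The lncRNA Tug1 had touching peaks of 4.29 and 3.88 on chromosome 11, and the pseudogene Rps18-ps6 had 1 peak of 4.08 on chromosome 13. The 8 unmatched identifiers were the 6 mitochondrial genes and 2 predicted genes, Gm45713 and Gm49804. Gm45713 shared 3 of its 4 peaks with Rpl13a and the remaining one with Flt3l, and Gm49804 shared 2 of 3 with Rps10. In all, 12 peaks of exon-only genes were listed under a second identifier.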

How the data were processed

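The authors deposited 1 peak list for the 2 immunoprecipitates and 2 inputs. Its fold column was read as log2 and its p column as -log10 p, from the deposited values (3.00 to 11.00, and 3.07 to a ceiling of 400). The build is GRCm39 per the submitters' processing notes; the sources used here do not give the aligner, peak caller, replicate handling or cut-offs. Totals per library were not used here, so depth is not known, and the steps below bear on it only if 1 input read is assumed.

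Classes were stripped and lower-cased, and a peak under 2 identifiers was counted once. Touching peaks of a gene were joined into regions. The step check read each fold as the mean of 2 log2 ratios with 1 input read each. It asked whether the product of the immunoprecipitated reads came out whole within 1e-06, with the commonest fold set to a product of 110, the best of 1 to 200. It did for 82.8% of all peaks. The scripts used Python 3.11.15, pandas 2.3.3, numpy 2.4.6 and scipy 1.17.1, and were tested on simulated lists.

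The genes and lists were chosen with earlier results of these data known. Lists are patterns of gene symbols. Named genes are the 20 nuclear genes of highest fold, the 10 with most peaks, all mitochondrial genes, genes at the p ceiling, the 3 widest peaks, the 3 longest regions, non-coding genes, up to 5 members per list by strongest fold, and the 5 genes just outside; further genes are marked or stand for the end of a range. RefSeq (GRCm38.p6) served for names and gene types only. Peak sequences were not read, since no GRCm39 genome was used here. The planned edgeR test needed counts per library and was not run. Some genes that meet this rule are not reported here.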

Additional observations from a re-analysis of the deposited data

How the results depend on the processing

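No paired analysis was possible because the list has no value per library, and for the same reason no replicate could be left out. The count of exon-only genes was 386, also with Exon and exon as separate classes, and 383 without peaks under 2 identifiers. It was 157 with 2 or more peaks per gene, 84 with 3 or more, 129 with 2 or more separate regions, and 233 when only peaks above the median fold of the list were kept and genes classed again. The limits on peaks or regions per gene count fewer genes by their construction. Classing again among the stronger peaks can drop genes and can also add genes whose UTR peaks are all left out. The median log2 fold of all exon-only peaks was 4.55. It was 4.49 without mitochondrial genes, 4.42 with the median peak per gene and 5.29 with peaks above the median p of the list. The median -log10 p of 5.6 became 4.95 with the strongest peak per gene, and the median width of 79 nt became 103 nt with the strongest peak per gene and 95.5 nt with touching peaks joined. Exon peaks of exon-only genes differed from exon peaks of other genes by -0.01 in median log2 fold; this was -0.10 with the strongest exon peak per gene and turned to 0.01 with peaks above the median fold. The cause of the turn was not tested. The mean of 2.02 peaks per gene was 1.67 after joining. With 2 or more peaks per gene, and with the stronger peaks, 12 lists lay above the share of all genes, instead of 13. Where peaks on the steps did have 1 input read, this would limit the precision of single folds.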
